A study of Mus musculus with 4 samples.

Results

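The EGFR ligands are the 7 genes Areg, Ereg, Hbegf, Tgfa, Btc, Epgn and Egf, and they were followed here among 20140 named genes on expression arrays of 2 mouse tumor cell lines. Their probes were found by matching the RefSeq accession printed for each probe to a RefSeq gene table, and each ligand had 1 probe. The family was selected on the signals of these same arrays, among them the lower Areg signal of AB1-HA cells under IFN-γ, so every level and difference of a ligand below is a description and carries no test. AB1-HA is a mesothelioma line from BALB/c mice, to which influenza hemagglutinin was added as a model antigen. LLC is the Lewis lung carcinoma, which the labels also call 3LL and give with strain C57BL6. The 4 groups were AB1-HA with vehicle, AB1-HA with IFN-γ, LLC with vehicle and LLC with IFN-γ, each cultured for 24 h. The hemagglutinin is shared by both AB1-HA groups, and the labels name no other genetic change and no IFN-γ dose. Each group is 1 array of a single slide, so the differences have no replicate check, and the small number of arrays limits how precise they are.

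Epidermal growth factor receptor (EGFR, gene Egfr) is a receptor tyrosine kinase that sends signals for growth, survival and migration through the RAS-ERK cascade. Its ligands are made as membrane-anchored precursors, and proteases of the ADAM family cut them free at the cell surface. Amphiregulin (Areg), transforming growth factor alpha (Tgfa), epigen (Epgn) and epidermal growth factor (Egf) bind EGFR, whereas heparin-binding EGF-like growth factor (Hbegf), betacellulin (Btc) and epiregulin (Ereg) also bind ERBB4. Several of the ligand genes are themselves switched on by ERK signalling, and many carcinomas and mesotheliomas use such ligands in an autocrine way. IFN-γ is the cytokine of activated T cells and natural killer cells that raises antigen presentation in the cells it reaches.

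Across the series, 57.5% to 58.2% of the 39429 gene probes were well above background on an array. IFN-γ acted in both lines by 5 genes it is known to induce (Irf1, Gbp2, Socs1, Cxcl10 and Psmb9), whose IFN-γ signals were 5.63-fold or more above vehicle in either line. The labelled tissues were only partly borne out by markers. Of the 11 mesothelial markers, Msln, Pdpn and Krt19 gave higher signals in AB1-HA, but Krt8, Krt18 and Bnc1 gave higher ones in LLC, and Wt1, Upk3b, Lrrn4 and Calb2 were not well above background on any array. Of the 12 lung epithelial markers, Foxa2 and the shared Krt8 and Krt18 were higher in LLC and Napsa was higher in AB1-HA, while Sftpc, Sftpb, Sftpa1, Nkx2-1, Epcam and Cdh1 were not well above background on any array. Among the leukocyte markers, Ptprc, Lyz2 and Adgre1 were not well above background on any array, Itgam, Cd3e and Csf1r were on all 4, and Itgax was in LLC only.

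Epgn, Ereg, Areg and Btc lie in this order on mouse chromosome 5, with no other protein-coding gene annotated between them. The 250 bases before the transcription start were taken from RefSeq promoter windows of build GRCm38.p6. Windows of 5 of the 7 ligands were searched, namely Areg, Btc, Epgn, Tgfa and Egf. No window of Ereg or Hbegf was searched, and the ligand windows had been filtered by chromosome. Nothing is therefore said of the Ereg and Hbegf promoters. The windows of Areg, Btc and Tgfa are shown because these genes had 3 different patterns. Areg was lower under IFN-γ in AB1-HA alone at 2-fold, Btc was below its vehicle signal in both lines, and Tgfa was measured above background in LLC only. The sequences run 5′ to 3′ on the strand of the gene, and capitals mark a cyclic AMP response element (CRE, TGACGTCA), GC boxes (GGGCGG or its complement) and a TATA box (TATAAA).
Areg, chr5:91139349-91139598, plus strand: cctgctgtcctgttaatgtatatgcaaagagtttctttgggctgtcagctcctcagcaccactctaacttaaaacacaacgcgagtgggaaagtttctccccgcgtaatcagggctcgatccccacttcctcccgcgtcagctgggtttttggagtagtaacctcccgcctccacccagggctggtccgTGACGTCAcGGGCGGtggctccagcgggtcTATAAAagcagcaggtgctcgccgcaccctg
Btc, chr5:91402995-91403244, minus strand: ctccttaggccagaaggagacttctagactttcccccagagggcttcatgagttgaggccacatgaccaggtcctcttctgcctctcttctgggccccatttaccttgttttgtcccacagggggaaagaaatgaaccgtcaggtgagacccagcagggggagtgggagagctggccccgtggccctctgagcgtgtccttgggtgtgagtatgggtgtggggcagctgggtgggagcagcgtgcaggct
Tgfa, chr6:86194972-86195221, plus strand: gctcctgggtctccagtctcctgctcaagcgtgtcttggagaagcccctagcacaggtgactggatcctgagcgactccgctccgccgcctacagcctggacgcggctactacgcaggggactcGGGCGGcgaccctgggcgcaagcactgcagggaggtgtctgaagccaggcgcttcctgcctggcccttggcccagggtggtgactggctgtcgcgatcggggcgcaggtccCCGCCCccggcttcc

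Counting back from the start, the Areg window held the CRE letters at −61 to −54, a GC box at −52 to −47 and TATAAA at −31 to −26. Of 32851 promoter windows of the same length, 1.55% held TGACGTCA, 32.7% GGGCGG and 12.4% TATAAA on either strand. The Tgfa window held a GC box at −126 to −121 and another on the minus strand at −15 to −10, and the Epgn window held TATAAA at −86 to −81. In the windows of Btc and Egf none of the letters named here was found. The search also covered AP-1 (TGANTCA, in 6.75% of windows), an interferon regulatory factor motif (GAAANNGAA, 7.13%) and TEAD (GGAATG, 12.6%), on both strands. These 3 had no match in the ligand windows searched, which do not cover Ereg and Hbegf. Such matches describe letters in these windows and do not show binding.

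Signals are given below as scaled intensities, that is, the scanner's background-subtracted signal after each array was brought to the same 75th percentile. A signal depends on the probe as well as on the RNA, so a level is compared between arrays for 1 gene and never between genes. Since whole cultures were measured, fewer cells making a transcript and less of it per cell cannot be told apart. The error quoted is the SD between repeat spots of 1 probe at a similar signal, called spot SD, and it covers spot noise only.

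Areg varied most among the ligands. Its scaled intensity was 368.5 in AB1-HA with vehicle, 102.5 in AB1-HA with IFN-γ, 2158.1 in LLC with vehicle and 2233.1 in LLC with IFN-γ. Both LLC arrays were therefore above both AB1-HA arrays, and the AB1-HA array with IFN-γ was the lowest of all, 21.8-fold under the highest. The LLC arrays were 0.05 apart on the log2 scale, within 2 spot SD, whereas each other step in the order was at least 1.85.

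Ereg gave 2014.7 in AB1-HA with vehicle, 896.1 in AB1-HA with IFN-γ, 1608.3 in LLC with vehicle and 2013.5 in LLC with IFN-γ. The AB1-HA array with IFN-γ was again the lowest, and the highest pair, AB1-HA with vehicle and LLC with IFN-γ, could not be separated. Hbegf gave 6619.9, 3207.8, 3993.3 and 6994.3 in the same order of groups. As for Ereg, the top pair (LLC with IFN-γ and AB1-HA with vehicle) lay within 2 spot SD, LLC with vehicle came next and AB1-HA with IFN-γ was lowest. The whole span was 2.25-fold for Ereg and 2.18-fold for Hbegf.

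Btc had its higher pair of signals in AB1-HA, with 760.0 in AB1-HA with vehicle, 414.5 in AB1-HA with IFN-γ, 378.2 in LLC with vehicle and 224.0 in LLC with IFN-γ. The AB1-HA array with IFN-γ and the LLC array with vehicle did not differ beyond 2 spot SD, and in each line the IFN-γ array was the lower one. Tgfa, measured on 10 spots per array, was 23.4 in LLC with vehicle and 23.6 in LLC with IFN-γ. In AB1-HA its signals of 3.8 and 3.5 were not well above background, so Tgfa was measured in LLC only.

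Epgn and Egf had low signals on every array. Epgn gave 17.0, 11.9, 12.6 and 12.4 in the order above, and no neighbours in its ranking differed beyond 2 spot SD. Egf, also on 10 spots, gave 34.3, 38.9, 33.5 and 28.4, with AB1-HA under IFN-γ highest and LLC under IFN-γ lowest. Its whole span was 1.37-fold. Thus 6 of the 7 ligands were well above background on all 4 arrays, as were 11985 of the named genes.

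**Figure D1:**
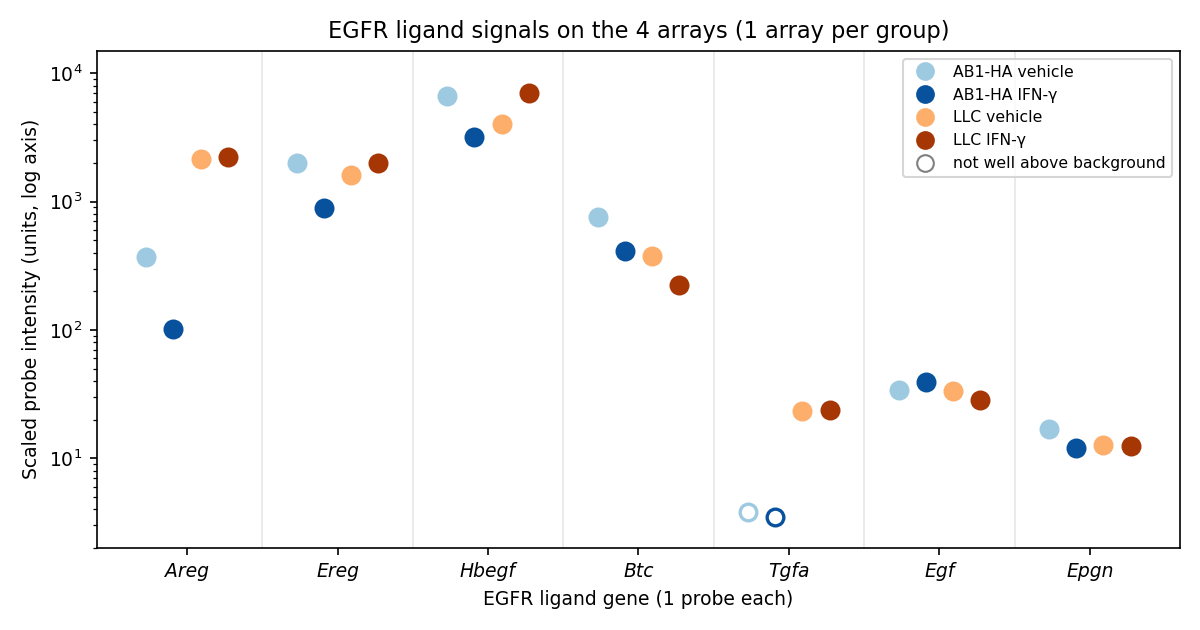
Scaled intensity (log axis) of each EGFR ligand, with 1 point per array and 1 array per group; open circles were not well above background, and no error bars are drawn because there are no replicates. Areg runs from 102.5 to 2233.1, Tgfa is measured in LLC only, and Epgn and Egf are nearly level; heights of different genes come from different probes and are not to be compared.

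The comparison of AB1-HA with IFN-γ against its vehicle asks which transcripts the cytokine changed in the mesothelioma line. Areg was 3.6-fold lower on the IFN-γ array, Ereg 2.25-fold and Hbegf 2.06-fold. In log2 terms these were differences of −1.85, −1.17 and −1.05, with a spot SD of 0.07 to 0.08. Only 17 of the 13208 genes with a value were further down than Areg, 80 were further down than Ereg and 129 than Hbegf. Btc was 1.83-fold lower (−0.87 ± 0.088 spot SD), which did not reach 2-fold. Epgn differed by −0.52, less than 2 spot SD at its dim signal (0.336), and Egf was slightly higher at 0.18. Tgfa had no value in AB1-HA.

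At 2-fold, 3 of the 6 ligands with a value were lower in AB1-HA under IFN-γ and 0 were higher. By the same measure 1.17% of all genes with a value were lower and 2.98% were higher. The ligand median was −0.96 and that of all genes −0.08. Because the family was chosen with this contrast known, nothing is read from these shares. Hbegf stood close to the 2-fold line and fell short of it under cyclic loess normalization (−0.96) and normexp background correction (−0.99).

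In LLC, IFN-γ left the ligands within 2-fold of their vehicle signals. Hbegf was the furthest up at 1.75-fold (0.81 ± 0.069 spot SD), with 94.9% of genes below it. Ereg was 1.25-fold higher (0.32). Btc was 1.69-fold lower (−0.76 ± 0.078 spot SD), and Egf was lower by 0.24 on the log2 scale. Areg (0.05), Tgfa (0.01) and Epgn (−0.02) stayed within 2 spot SD of 0, and the sign of each of them turned under at least 1 other scaling or background correction.

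Of the 7 ligands, 0 passed 2-fold upward and 0 downward in LLC, with 3.68% of 13411 genes higher and 1.46% lower. The ligand median of 0.01 was next to the all-gene median of −0.06, and it was negative under scaling to the array median (−0.13), quantile normalization (−0.15) and cyclic loess (−0.21). Btc was thus lower with IFN-γ in both lines, by 1.83-fold and 1.69-fold, and these effects were 0.12 apart on the log2 scale.

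**Figure D2:**
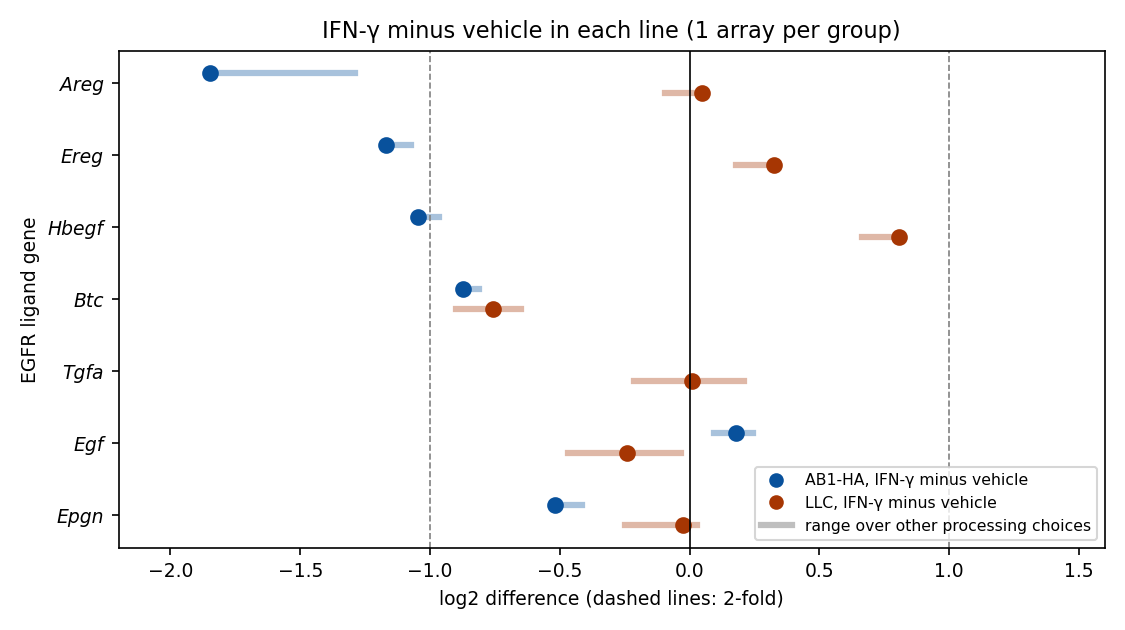
Difference between the IFN-γ and the vehicle array (log2, horizontal axis) for each ligand (vertical axis) in AB1-HA and LLC; points are the reported values, bars are the range over the other processing choices and not an error, and dashed lines mark 2-fold. Areg, Ereg and Hbegf lie at −1.85, −1.17 and −1.05 in AB1-HA and between 0.05 and 0.81 in LLC.

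The difference between the lines' IFN-γ effects, LLC minus AB1-HA, can be formed for the 6 ligands well above background on all arrays. It was 1.90 on the log2 scale for Areg, 1.85 for Hbegf and 1.49 for Ereg, that is, ratios of 3.72-fold, 3.61-fold and 2.81-fold. For Hbegf and Ereg the 2 lines differed in sign by more than 2 spot SD on each side. Egf also did so, the other way round, at 0.18 in AB1-HA and −0.24 in LLC. For Areg the LLC effect was close to 0, so nearly all of its difference came from AB1-HA. Epgn (0.49, spot SD 0.432), Btc (0.12) and Egf (−0.42) stayed under 2-fold.

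Hence 3 of 6 ligands differed by at least 2-fold in the direction of LLC and 0 in the other. Over 11985 genes the shares were 2.54% and 1.69%. The ligand median was 0.99 against 0.03 for all genes. This quantity is built from the same 4 arrays as the effects within each line, so it is no further evidence, and with 1 array per group the difference itself was not tested.

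**Figure D3:**
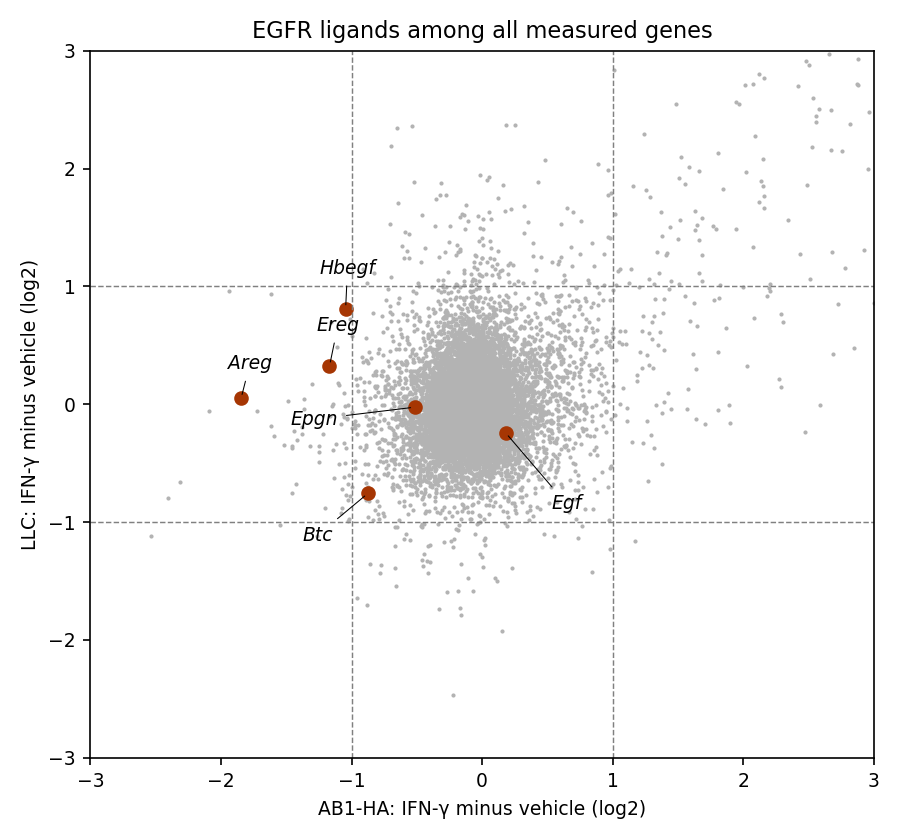
IFN-γ minus vehicle in AB1-HA (horizontal axis, log2) against the same in LLC (vertical axis, log2) for 11985 genes well above background on all 4 arrays, of which 97 lie outside the axes; dashed lines mark 2-fold and red points are 6 EGFR ligands. Areg, Ereg and Hbegf sit left of −1 on the horizontal axis and above 0 on the vertical axis, and Btc sits below 0 on both.

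With vehicle, the lines differed in Areg, which was 5.86-fold higher in LLC (2.55), and in Tgfa, at least 2.7-fold higher in LLC. The Tgfa figure is a bound: the LLC signal was set against the lowest signal that counted as well above background on the AB1-HA array. Btc was 2.01-fold lower in LLC (−1.01), just past the 2-fold line, and Hbegf 1.66-fold lower (−0.73). Ereg (−0.33), Epgn (−0.43) and Egf (−0.03) differed by less than 2-fold. In all, 2 of 7 ligands were at least 2-fold higher in LLC and 1 was lower, where 16.4% and 16.0% of 13836 genes were. The Btc value was short of 2-fold in 4 of 9 alternatives, and the Tgfa bound fell to 0.13 under normexp, whose offset of 50 units is above the Tgfa signals.

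The arrays of the lines also differed in their marker lists. Of the 12 lung epithelial genes, 4 to 6 were well above background per array, and their summed scaled intensity was 519.3 to 690.4 in AB1-HA and 106915.9 to 137445.5 in LLC. The mesothelial list, with 5 to 7 of 11 genes above background, summed to 51670.9 to 65872.8 in AB1-HA and 103994.0 to 133031.7 in LLC. Krt18, which is on both lists, made up most of the LLC sums, at 121432.4 with vehicle and 95388.8 with IFN-γ. Such sums add signals of different probes and follow the brightest, so they are no measure of cell type. The leukocyte list had 3 to 4 of 8 genes above background on each array, with sums between 3645.1 and 4678.6. Its member Csf1r was at 675.2 and 529.9 in AB1-HA and at 165.6 and 554.9 in LLC, with vehicle and IFN-γ, so it was 3.35-fold higher with IFN-γ in LLC. The part of these markers in the ligand differences was not tested.

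Under IFN-γ the lines were further apart in Areg, Ereg and Hbegf. Areg was 21.8-fold higher in LLC (4.45), or 3.65 on the log2 scale under normexp. Ereg was 2.25-fold higher (1.17), Hbegf 2.18-fold (1.12) and Tgfa at least 3.08-fold, whereas Btc was 1.85-fold lower (−0.89). Egf was lower in LLC by 0.45 on the log2 scale and Epgn was 0.06 apart. This made 4 of 7 ligands at least 2-fold higher and 0 lower, beside 15.4% and 13.3% of 13893 genes. The ligand median was 1.12 here and −0.33 with vehicle. Ereg (0.97) and Tgfa (0.42) were under 2-fold with normexp, and Hbegf (0.99) with scaling to the array median. That scaling also put Btc past 2-fold (−1.02), which made 3 ligands higher and 1 lower. These comparisons use the arrays of the within-line comparisons again, so for Ereg and Hbegf the higher LLC signal under IFN-γ restates their lower AB1-HA and higher LLC signals.

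Egfr itself differed between the lines far more than with IFN-γ. It gave 140.7 and 152.4 in AB1-HA with vehicle and IFN-γ, and 3593.0 and 2688.1 in LLC. Both LLC arrays were thus well above both AB1-HA arrays, by 4.67 on the log2 scale with vehicle and 4.14 under IFN-γ. The other 2 Egfr probes gave 2.77 and 3.44 with vehicle, the same direction at a smaller size. Within the lines Egfr differed by 0.12 in AB1-HA and −0.42 in LLC. The other 2 probes gave −0.20 and 0.48 in AB1-HA, which differ in sign, and −0.23 and −0.41 in LLC.

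Erbb2, the co-receptor that has no ligand of its own, gave 1217.3, 1224.3, 975.8 and 728.4 in the order of groups above, so it was close to level in AB1-HA and 0.42 lower on the log2 scale under IFN-γ in LLC. Erbb3 and Erbb4, the receptors of the neuregulins, were not well above background on any array. Among the neuregulins, Nrg1 was 15.2-fold lower in LLC than in AB1-HA with vehicle, at 127.1 against 1936.6. Nrg2 was at least 26.4-fold higher in LLC with vehicle, and Nrg3 and Nrg4 were not well above background on any array. Neither neuregulin differed by 2-fold with IFN-γ in a line that expressed it.

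Of the 16 shedding and trafficking genes, which include the ADAM proteases and the iRhom proteins that carry ADAM17 to the surface, 15 had a value in AB1-HA. Only Adam19, a protease of the ADAM family, was past 2-fold there, lower by 1.03, and cyclic loess and normexp ended that call. In LLC 0 of 16 were past 2-fold. Of all genes with a value, 1.17% were lower and 2.98% higher in AB1-HA, and 1.46% and 3.68% in LLC. Adam17, the main sheddase of Areg, Ereg, Hbegf, Tgfa and Epgn, gave 450.1 and 465.4 in AB1-HA and 213.2 and 195.0 in LLC. It was thus almost level with IFN-γ and 2.11-fold lower in LLC with vehicle, though this was under 2-fold with cyclic loess and normexp. The other Adam17 probe was lower in LLC with vehicle by 1.51 on the log2 scale. With IFN-γ that probe was at −0.07 in AB1-HA and −0.04 in LLC. Adam8 differed between the lines' effects, at −0.65 in AB1-HA and 0.70 in LLC.

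The receptor feedback inhibitors include Errfi1, which blocks the EGFR kinase, and the ubiquitin ligase Cbl, which sends the receptor for degradation. Of 14, 13 had a value and 0 passed 2-fold with IFN-γ in either line, with medians of −0.15 in AB1-HA and −0.16 in LLC. The list of ERK phosphatases, Sproutys and Spreds also holds phosphatases of the stress kinases, such as Dusp8. On this list 1 of 16 genes was past 2-fold in AB1-HA and 0 of 17 in LLC. That gene was Dusp5, a nuclear ERK phosphatase, at 50.3 with vehicle and 11.8 with IFN-γ in AB1-HA, and at 111.3 and 106.9 in LLC. Dusp5 was thus lower by 2.09 on the log2 scale in AB1-HA, but by 0.66 under normexp, which ended the call. The RAS-ERK core list also holds genes of AKT and phospholipase C signalling. Of its 21 genes, 0 passed 2-fold in either line, and the medians of −0.17 and −0.11 were near those of all genes. Over all genes 1.17% were lower and 2.98% higher in AB1-HA, and 1.46% and 3.68% in LLC. Nothing is read from the counts of these short lists.

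The ERK-responsive targets had opposite medians in the 2 lines, −0.23 in AB1-HA (20 of 27 below 0) and 0.15 in LLC (20 of 29 above 0). The LLC median was only 0.01 with scaling to the array median. All genes had medians of −0.08 in AB1-HA and −0.06 in LLC, so most genes lay below 0 in both. At 2-fold, 1.17% of all genes were lower and 2.98% higher in AB1-HA, and 1.46% and 3.68% in LLC. In AB1-HA 1 of them was past 2-fold, Plaur, the urokinase receptor, which gave 13813.8 with vehicle and 6468.5 with IFN-γ. In LLC Plaur gave 8700.1 and 9744.0, so only the AB1-HA pair moved past 2-fold. In LLC the 2 immediate-early transcription factors Egr1 and Egr2 were higher, by 1.11 and 1.29. Egr1 gave 1520.3 with vehicle and 3292.2 with IFN-γ in LLC but 8655.7 and 4879.2 in AB1-HA, so its AB1-HA signals were the higher ones and went the other way. The Egr1 call ended with scaling to the array median (0.97) and the Egr2 call with normexp (0.62).

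For the difference between the lines' effects, 4 of 26 ERK-responsive targets (Egr1, Egr2, Plaur and Fosb) were past 2-fold toward LLC and 0 toward AB1-HA, beside 2.54% and 1.69% of all genes, with a median of 0.53. The Fosb call ended under all 4 other scalings and background corrections, and that of Egr2 (0.87) also ended under normexp, which left 2 of 26. The list's median stayed above 0 under each, from 0.39 upward. Areg is also known to be a target of YAP and TEAD. The list for such targets also holds genes of the regulators themselves (Yap1, Wwtr1 and Tead1), so its values are not those of targets alone. This list had medians of −0.07 and −0.28 in AB1-HA and LLC with 0 of 12 past 2-fold in either. Within the lines, 1.17% of all genes were lower and 2.98% higher in AB1-HA, and 1.46% and 3.68% in LLC. These lists were drawn up with results of these arrays known, and whether their signals are linked to those of the ligands was not tested.

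**Figure D4:**
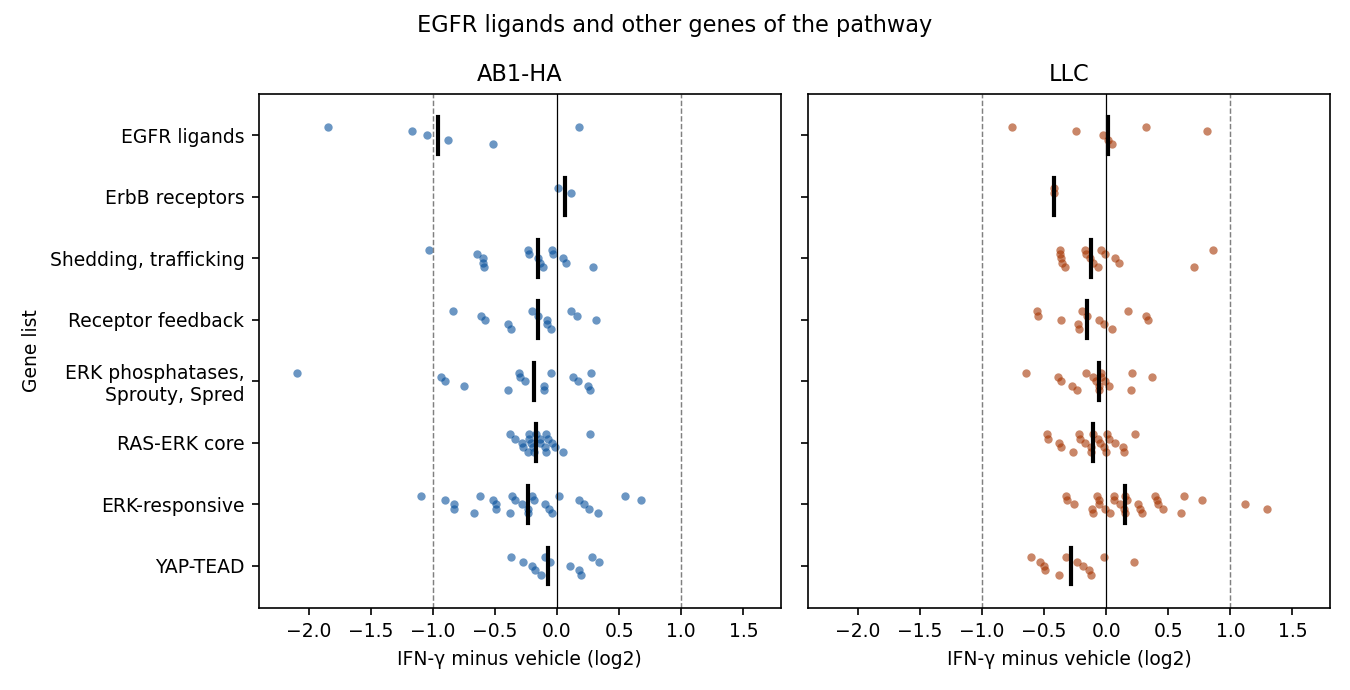
IFN-γ minus vehicle (log2, horizontal axis) for the genes of each list (vertical axis) in AB1-HA (left) and LLC (right), with 1 point per gene with a value, a black bar at the list's median and dashed lines at 2-fold. In AB1-HA the ligand median of −0.96 lies further left than the medians of the other lists, which run from −0.23 to 0.06; in LLC the ligand median is 0.01.

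The list of ERK phosphatases, Sproutys and Spreds was also compared between the lines. With vehicle, 8 of 17 genes were at least 2-fold higher in LLC and 2 were lower, and under IFN-γ 9 were higher and 2 lower. All genes stood at 16.4% higher and 16.0% lower with vehicle, and at 15.4% and 13.3% under IFN-γ. Dusp2 was the gene furthest apart, at 9.5 in AB1-HA and 10754.0 in LLC with vehicle. Dusp8, a phosphatase of the stress kinases, was the furthest in the other direction, at 506.7 in AB1-HA and 91.1 in LLC. Of 29 ERK-responsive targets, 7 were higher and 5 lower in LLC with vehicle, and 10 were higher and 1 lower under IFN-γ, beside the same all-gene shares. With vehicle, the lower share of this list was thus near that of all genes. Egr1 was among the lower ones with vehicle (−2.51), and the cytokine Il11 among the higher ones (3.83).

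Of the genes flanking the Epgn, Ereg, Areg and Btc cluster, only Cxcl1, Mthfd2l and Parm1 had a value. None of them was 2-fold lower with IFN-γ in either line, where 1.17% of all genes were in AB1-HA and 1.46% in LLC. Nothing is read from so few genes. On the Epgn side the nearest gene with a value, Mthfd2l, a mitochondrial folate enzyme, was at −0.58 in AB1-HA, close to the −0.52 of Epgn, and at −0.28 in LLC. The neutrophil chemokine Cxcl1, further out, was higher with IFN-γ in both, by 0.65 and 1.66. Cxcl2 and Cxcl15 were named on the array but had no value in any comparison. On the Btc side Parm1 was at 0.01 and −0.41. Within the cluster itself the effects in AB1-HA were −0.52, −1.17, −1.85 and −0.87 from Epgn to Btc, and in LLC −0.02, 0.32, 0.05 and −0.76. Areg and Btc, neighbours among the genes with a probe, thus had unlike profiles.

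Genes of like profile were ranked for the 4 ligands well above background on all arrays that spanned at least 2-fold, over the same 11985 genes. Likeness is the root mean square distance between log2 profiles over the 4 arrays, each centred on its own mean. Hbegf had the closest match, Amer3, at 0.033, followed by Dner at 0.128. For Ereg the nearest were Gm10639 at 0.062 and Acan, the proteoglycan aggrecan, at 0.093. Ereg ranked 16 for Hbegf and Hbegf ranked 17 for Ereg, both at 0.209, so these ligands were the pair of the family with the most similar profiles.

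For Btc the nearest genes were Map1a at 0.092 and Padi2 at 0.093. Areg had no near match: its closest gene was Phex at 0.33, followed by Rasl11b at 0.352, and the other ligands were at 1.56 or more from it. With 4 points per gene, such distances describe these arrays only.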

How the data were processed

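Total RNA of the 4 cultures was labelled with Cy3 and hybridized to 1 Agilent slide, per the labels' protocols. The intensity values deposited for each spot are scanner output of Feature Extraction 10.7.1.1 (10.7 in the submitters' processing notes), background-subtracted but not normalized between arrays, per the file headers, which name build mm9. The log2 value table deposited by the authors has no stated method; over 39313 probes its columns correlated at 0.999998 to 0.999999 with log2 signals scaled to the 75th percentile and centred on each probe's median, and its column medians were 0.11, −0.08, −0.13 and 0.08. Scale and direction are thus those of log2 signal.

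Outlier spots were left out (166 to 201 per array), spots of a probe were averaged, and the 75th percentile of an array's gene probes was subtracted on the log2 scale (1380.2 to 1597.6 units). A probe was well above background where at least 0.5 of its spots carried the scanner's mark. With 1 side below, the difference is a bound against the higher of its signal there and the array's lowest signal well above background (7.01 to 8.26); with both below there is no value. Accessions named 26581 of 39429 probes through a RefSeq table of GRCm38.p6, used for names and gene order; 12848 stayed unnamed. The probe with the highest mean stood for a gene. Spot SD came from the nearest 50 of 399 probes with repeat spots (median 0.072 log2), or from a ligand's own 10 spots.

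Genes were counted at 2-fold; without replicates no p-value was computed. The text names all ligands, Egfr, Erbb2, Erbb3, Erbb4 and Adam17, list members past 2-fold or, where over 6 were, up to 4 with the largest differences, 5 IFN-γ-induced genes, 5 neighbours on each side and the 5 nearest profiles of a ligand; examples outside this rule (Errfi1, Cbl, Egr1 and Il11 between the lines, Adam8 within each line, the neuregulins and cell type markers) were chosen after their values were seen. The members and lists were chosen with earlier results of these data known. Alternatives were the array median in place of the percentile, quantile or cyclic loess normalization, normexp on median spot signals (offset 50; mean signals not used here), the authors' table, no or stricter background filter, outliers kept, the mean over probes and a 1.5-fold threshold. The calculation was tested on simulated data. Python 3.11.15 (numpy 2.4.6, pandas 2.3.3, matplotlib 3.10.9) and R 4.3.3 with limma 3.58.1 were used.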

Additional observations from a re-analysis of the deposited data

Results flagged for a closer look

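For 3 ligands the IFN-γ effect had opposite signs in the 2 lines and differed by at least 2-fold between them. Among these, both signs were beyond 2 spot SD for Ereg and Hbegf only. Egf also had opposite signs beyond 2 spot SD, at 0.18 in AB1-HA and −0.24 in LLC, but differed by less than 2-fold. The IFN-γ effect in LLC minus that in AB1-HA was 1.90 on the log2 scale for Areg, 1.49 for Ereg and 1.85 for Hbegf. With 1 array per group the difference was not tested. The Areg effect in LLC was within spot noise of 0 and its sign turned with scaling to the array median (−0.10), while those of Ereg and Hbegf in LLC kept their sign under the 9 alternatives run.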

How the results depend on the processing

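No paired analysis was possible because each group is 1 array and the only replicate number is shared by all. The count of ligands past 2-fold stayed within 1.5 times for the AB1-HA effect and the difference of effects in every alternative run. For the LLC effect it went from 0 to 2 at 1.5-fold (Hbegf higher, Btc lower). Under normexp it went from 3 to 1 for LLC versus AB1-HA with vehicle and from 4 to 2 under IFN-γ. No ligand past 2-fold changed direction. The Areg effect in AB1-HA ran from −1.85 to −1.29 and was past 2-fold in 9 of 9 alternatives, and without a background filter the Tgfa line differences were 2.62 and 2.76. Scaling to the array median moved the all-gene median of the LLC effect from −0.06 to −0.20 and that of the difference of effects from 0.03 to −0.11. The share of calls that were higher moved from 71.6% in LLC to 55.5% (array median), 60.0% (quantile), 55.7% (loess) and 92.4% (normexp). It moved from 71.9% to 92.9% in AB1-HA under normexp, and from 60.0% to 39.9%, 47.0% and 36.0% for the difference of effects under the array median, quantile and loess. The causes were not tested. Signals near background (Tgfa, Epgn, Egf) limit what small differences can show.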
